A study of Mus musculus with 16 samples.

Results

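The 10 genes described here, of 55335 in the table of counts, mark the early stages of the oligodendrocyte lineage, and were read in mouse hippocampus. They were chosen by name, with earlier results of the same mice known, so their differences between groups are given as a description. Their p-values are not printed, but a gene is named as called where its unadjusted p passed the threshold stated below. Because of how the genes were chosen, these calls and the intervals are descriptive and cannot serve as tests of genes chosen beforehand. *Pdgfra* and *Cspg4* mark oligodendrocyte precursor cells (OPCs). *Olig2*, *Sox10* and *Myrf* encode transcription factors of the lineage. *Bmp4*, *Gpr17*, *Enpp6*, *Itpr2* and *Tcf7l2* mark committed precursors and newly formed oligodendrocytes. Whole-hippocampus RNA was sequenced from 16 female mice aged 10 months, 4 in each of 4 groups. WT mice were of the strain C57BL/6J x 129S1 and 3xTg mice were of a mixed B6;129 background with human APP and tau transgenes under a neuron-specific Thy1.2 element. Mice labelled D (WT-D, 3xTg-D) received vehicle (0.8% DMSO in aCSF) into the lateral ventricle from an osmotic pump for 28 days, and mice labelled S (WT-S, 3xTg-S) received 80 µM CAY10566, an inhibitor of stearoyl-CoA desaturase (SCD), in the same vehicle. All 16 mice therefore carried a pump and received DMSO. The treatment labels name the Cayman compound, whereas the common protocol entry gives ab142089 as the inhibitor. The strain labels of WT and 3xTg differ, so the transgenes and the strain background cannot be told apart.

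OPCs persist throughout the adult brain, where they divide slowly and respond to platelet-derived growth factor through the receptor encoded by *Pdgfra*. A cell that leaves this state loses *Pdgfra* and *Cspg4*, passes through a short-lived stage with *Gpr17*, *Bmp4*, *Enpp6*, *Itpr2* and *Tcf7l2*, and then turns on the myelin genes under the control of *Myrf*. *Olig2* and *Sox10* are active in the whole lineage, from the precursor to the myelinating cell. Because the newly formed stage is brief, its transcripts are taken as a sign of ongoing oligodendrocyte formation, and *Enpp6*, which encodes a choline-specific glycerophosphodiesterase, is the marker most often used for it.

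The genes lay on 9 chromosomes of GRCm38. *Enpp6* spanned chr8:46986887-47096762 on the forward strand in 8 exon blocks, and *Olig2* spanned chr16:91225457-91228677 on the forward strand in 2. RefSeq promoter windows (GRCm38.p6, 250 bases before to 50 after a start site) were found for 7 of the 10 genes, with 8 windows in all. The stretches upstream of *Enpp6* and *Olig2* are shown because these 2 genes differed most, in opposite directions, between the vehicle-infused genotypes, and the internal start site of *Tcf7l2* is shown because it held the only motif match. They run 5′ to 3′ on the forward strand and stop before the first annotated exon base, and capitals mark the match.
Enpp6, chr8:46986637-46986886: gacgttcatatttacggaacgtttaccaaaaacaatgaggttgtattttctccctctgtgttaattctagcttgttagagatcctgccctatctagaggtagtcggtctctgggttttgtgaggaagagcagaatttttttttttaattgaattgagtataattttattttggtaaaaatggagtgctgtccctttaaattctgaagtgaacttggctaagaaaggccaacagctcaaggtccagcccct
Olig2, chr16:91225300-91225456: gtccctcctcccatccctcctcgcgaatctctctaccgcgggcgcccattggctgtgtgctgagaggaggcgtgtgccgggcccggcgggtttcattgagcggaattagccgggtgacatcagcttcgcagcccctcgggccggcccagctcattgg
Tcf7l2, chr19:55895071-55895320: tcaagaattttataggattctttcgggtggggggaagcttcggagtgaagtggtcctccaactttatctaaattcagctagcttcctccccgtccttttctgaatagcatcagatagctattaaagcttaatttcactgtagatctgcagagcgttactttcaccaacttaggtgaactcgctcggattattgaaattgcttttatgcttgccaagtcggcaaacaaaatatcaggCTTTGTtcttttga

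The windows differed in base composition. G and C made up 40.3% of the *Enpp6* window, 42.0% of the internal *Tcf7l2* window and 65.0% of the *Olig2* window, and the *Itpr2* window was the richest at 73.3%. Motifs for the factors among the 10 genes were searched on both strands, namely ACAAAG for SOX proteins, the E-box CAGCTG for OLIG proteins, CTGGCAC for MYRF and ATCAAAG for TCF and LEF proteins. ACAAAG was found in 1 of the 8 windows, as CTTTGT on the reverse strand starting 14 bases before the internal *Tcf7l2* start site, and in 18.7% of all 32851 promoter windows. The other motifs were in none of the 8 windows and in 16.3%, 5.01% and 3.73% of all windows, in the order given. A match describes letters only, and 8 windows are too few for a comparison of shares.

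Between 15413385 and 23590149 reads per mouse were assigned to genes, with medians of 20353679 in WT-D mice, 18655448 in 3xTg-D mice, 20332987 in WT-S mice and 17080070 in 3xTg-S mice. Levels are given as CPM, the read count of a gene scaled to library size with TMM factors. *Thy1*, whose regulatory element drives the transgenes, was at 549.9 ± 25.6 CPM in WT-D mice, 1887 ± 122 in 3xTg-D mice, 570.2 ± 42.2 in WT-S mice and 1845 ± 239 in 3xTg-S mice (SD, n = 4 mice), and the genotypes did not overlap. The hippocampal neuron gene *Neurod2* was at 109 CPM or more in every mouse, and of 8 such genes *C1ql2* was called lower in 3xTg-D mice than WT-D mice (-1.01 ± 0.13) and in 3xTg-S mice than WT-S mice (-1.27 ± 0.17), where *Bok* was also called (-0.58 ± 0.19, lost in 6 of 8 fits with a mouse left out). Over all tested genes 2.47% were called lower in each of these comparisons. The choroid plexus gene *Ttr* ran from 0.756 to 638 CPM, with its highest values in single mice of WT-D and WT-S. It was called lower than in WT-D mice in 3xTg-D mice (-4.89) and in 3xTg-S mice (-5.88). These calls were lost in 5 of 8 and 3 of 8 fits with a mouse left out. Without WT-D mouse 4 the fold changes were -1.66, not called, and -2.67, still called. The share of uniquely mapped reads outside genes was 10.5 to 12.5% in WT-D mice, 8.79 to 11.3% in 3xTg-D mice, 8.55 to 13.1% in WT-S mice and 7.82 to 15.1% in 3xTg-S mice, with both extremes of the last group in mice 2 and 4.

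Per kilobase of exon, the 10 genes fell into an upper and a lower tier. Over the 16 mice *Gpr17* was at 8.39 ± 1.59 CPM per kb, *Sox10* at 8.04 ± 1.03, *Pdgfra* at 7.86 ± 0.702 and *Olig2* at 7.62 ± 1.71 (mean ± SD). These 4 did not separate, since each was above the next in only 9 of 16 mice for the first 3 steps. *Olig2* was above *Myrf*, at 4.58 ± 0.577, in all 16 mice, and *Myrf* was above *Itpr2*, at 2.31 ± 0.220, with no overlap of their ranges. *Enpp6*, at 1.62 ± 0.530, lay below *Itpr2* in 14 of 16 mice and above *Cspg4*, at 1.32 ± 0.206, in 10. *Tcf7l2* and *Bmp4* were lowest, at 0.646 ± 0.111 and 0.605 ± 0.244, and the former was above the latter in 9 mice. Among all tested genes with a known exon length, 68.5% lay below *Gpr17*, 31.9% below *Enpp6* and 17.3% below *Bmp4*. *Bmp4* was counted by only 13 to 63 reads per mouse, the least of the 10, against 125 to 409 for *Enpp6* and 1163 to 1920 for *Pdgfra*.

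**Figure D1:**
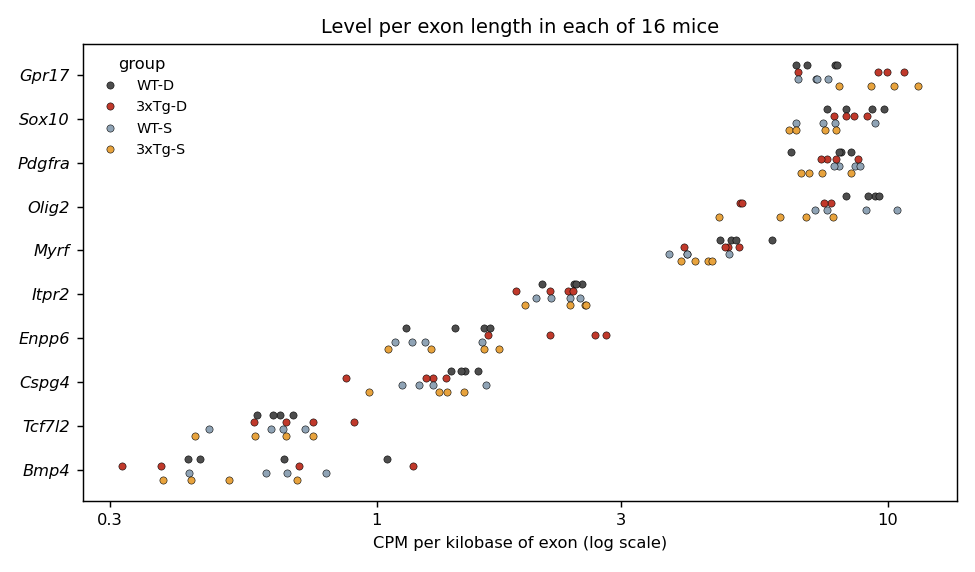
Level of each gene per kilobase of exon (CPM per kb, log scale) in each of 16 mice, colored by group and ordered by the mean over all mice. *Gpr17*, *Sox10*, *Pdgfra* and *Olig2* share the upper range, *Myrf* and *Itpr2* do not overlap, and *Tcf7l2* and *Bmp4* lie at the low end.

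Within groups the coefficient of variation was 5.64 to 11.3% for *Pdgfra* and 4.91 to 18.3% for *Cspg4*, the 2 precursor markers. *Pdgfra*, the receptor that carries the mitogenic PDGF signal in OPCs, was at 81.1, 80.4, 84.8 and 65.0 CPM in WT-D mice 1 to 4 and at 79.4, 76.2, 87.6 and 74.3 CPM in 3xTg-D mice. It was at 86.5, 88.6, 80.4 and 78.8 CPM in WT-S mice and at 85.0, 70.5, 74.7 and 67.9 CPM in 3xTg-S mice. The groups overlapped in every comparison, and 3 of 4 3xTg-S mice lay below all WT-S mice (log2 fold change -0.18 ± 0.08 SE, 95% interval -0.37 to 0.01). With vehicle the genotypes differed by 0.03 ± 0.09 on the log2 scale, with an interval of -0.16 to 0.22. Fibroblasts of vessels and meninges also carry *Pdgfra*, and the summed level of 8 of their markers was 73.7 to 145 CPM in WT-D mice, 66.1 to 114 in 3xTg-D mice, 66.4 to 107 in WT-S mice and 51.1 to 112 in 3xTg-S mice. Of these markers *Aebp1* was called lower in 3xTg-D mice than WT-D mice, against 2.47% of all tested genes. *Aebp1*, *Col1a2* and *Slc6a13* were called lower in 3xTg-S mice than WT-D mice, against 3.43%. When 1 mouse was left out, the first of these calls was lost in 5 of 8 fits, those of *Col1a2* and *Slc6a13* in 6 of 8 each, and that of *Aebp1* in 3xTg-S mice in none. The sums were carried by *Dcn* (62.1 ± 22.0 CPM in WT-D mice, 64.1 ± 17.3 in 3xTg-D mice), while 7 of the 8 markers had negative fold changes in both comparisons, with medians of -0.65 and -0.92. None was at 0, although *Igf2* was below 1 CPM in every mouse, and their part in the *Pdgfra* values was not tested.

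*Cspg4* encodes the NG2 proteoglycan of OPCs, which pericytes also carry. It was at 18.8, 17.7, 17.5 and 16.7 CPM in WT-D mice and at 16.3, 10.4, 15.3 and 14.9 CPM in 3xTg-D mice, so that all 3xTg-D mice lay below all WT-D mice (-0.32 ± 0.12, interval -0.59 to -0.04). It was at 13.4, 15.4, 14.4 and 19.5 CPM in WT-S mice and 16.4, 11.5, 15.8 and 17.7 CPM in 3xTg-S mice, which overlapped with each other and with the vehicle groups. The summed level of 8 pericyte markers was also lower in 3xTg-D mice (167 to 185 CPM) than in WT-D mice (187 to 212 CPM), with 175 to 277 CPM in WT-S mice and 170 to 207 CPM in 3xTg-S mice. None of these markers was at 0, none passed the threshold in any comparison, and their part in the *Cspg4* values was not tested.

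**Figure D2:**
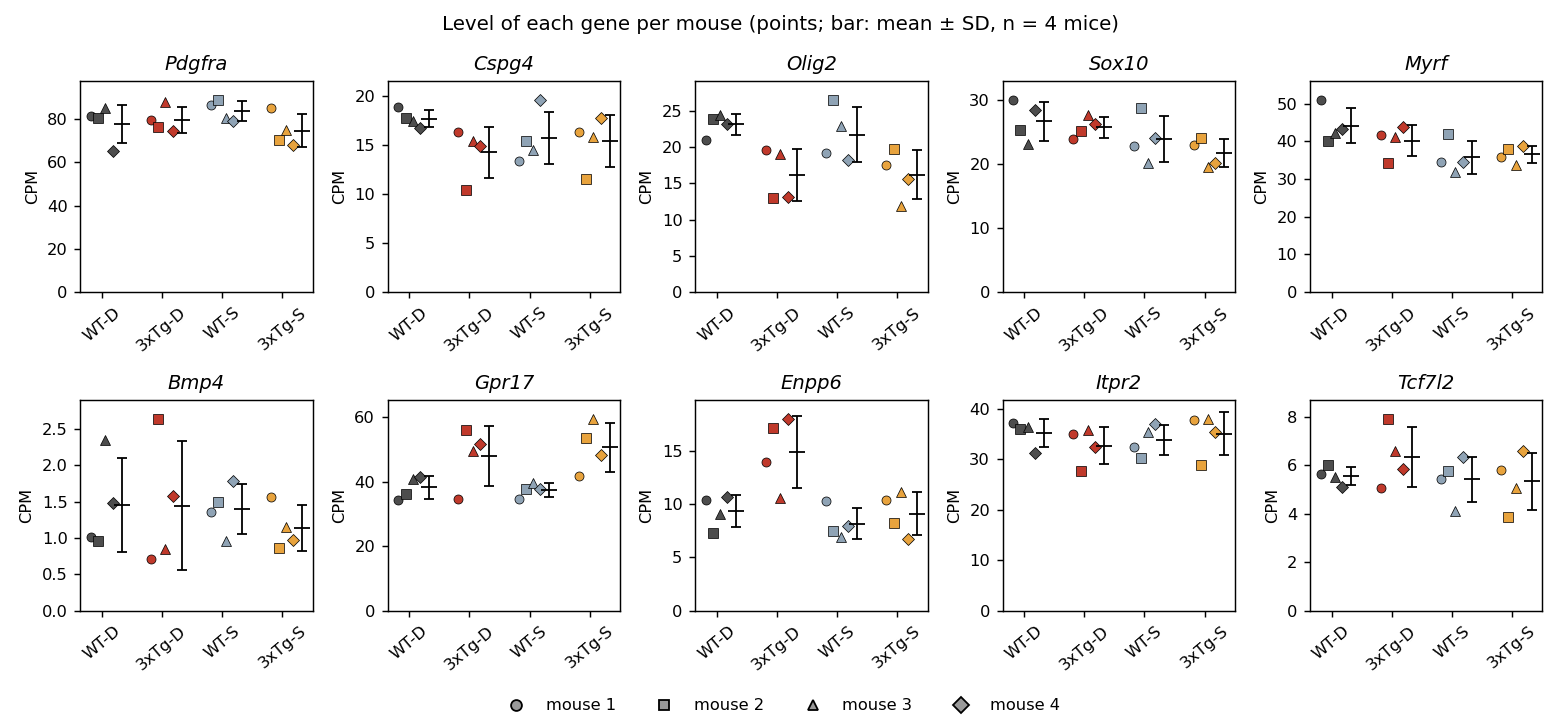
CPM of each of the 10 genes in the 16 mice, by genotype and infusion, with the mouse number as the symbol and the mean ± SD beside the points. 3 of 4 3xTg-D mice lie above all WT-D mice for *Enpp6*, and all 4 lie below all WT-D mice for *Olig2* and *Cspg4*.

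*Olig2*, the factor needed to specify the lineage, was called lower in 3xTg-D mice than in WT-D mice, and was not called between the groups given CAY10566. It was at 20.99, 23.9, 24.4 and 23.2 CPM in WT-D mice and at 19.6, 13.0, 19.0 and 13.1 CPM in 3xTg-D mice, with no overlap (-0.52 ± 0.14, interval -0.82 to -0.21, a change of -30.0%). It was at 19.2, 26.4, 22.9 and 18.2 CPM in WT-S mice and at 17.5, 19.7, 11.8 and 15.6 CPM in 3xTg-S mice, where 3 of 4 3xTg-S mice lay below all WT-S mice (-0.44 ± 0.17, interval -0.80 to -0.07). The genotype difference under CAY10566 minus that under vehicle was 0.10 ± 0.23 (interval -0.39 to 0.58) and was not called. The difference between CAY10566 and vehicle was 0.00 ± 0.18 in 3xTg mice (interval -0.40 to 0.41) and -0.09 ± 0.11 in WT mice (interval -0.34 to 0.16), so shifts inside those intervals could not be seen. In bulk tissue, fewer cells of a type and less RNA per cell cannot be told apart. The vehicle difference lost its call without WT-D mouse 2 (-0.50) or WT-D mouse 3 (-0.49) and with the share of reads outside genes as a covariate (-0.42). The CAY10566 difference between genotypes gained one without 3xTg-S mouse 2 (-0.56).

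*Sox10*, which binds and activates myelin gene enhancers, differed less. It was at 30.0, 25.3, 23.2 and 28.4 CPM in WT-D mice, 23.9, 25.3, 27.8 and 26.2 CPM in 3xTg-D mice, 22.8, 28.8, 20.2 and 24.0 CPM in WT-S mice and 23.02, 24.1, 19.5 and 20.2 CPM in 3xTg-S mice. All pairs of groups overlapped, and the 3xTg-S mice were the lowest group. Its largest difference within a genotype was between 3xTg-S and 3xTg-D (-0.25 ± 0.09, interval -0.44 to -0.05), which did not pass the threshold, and did so without 3xTg-S mouse 2 (-0.30).

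*Myrf*, the membrane-bound factor that switches on myelin genes in newly formed cells, was highest in WT-D mice. Its levels were 50.9, 40.2, 42.3 and 43.3 CPM in WT-D mice, 41.8, 34.2, 41.1 and 43.8 CPM in 3xTg-D mice, 34.6, 41.9, 31.9 and 34.6 CPM in WT-S mice and 35.9, 38.0, 33.8 and 38.9 CPM in 3xTg-S mice. 3 of 4 WT-S mice lay below all WT-D mice (-0.31 ± 0.10, interval -0.53 to -0.08), just outside the threshold, and the call appeared without WT-D mouse 2 (-0.35) or WT-S mouse 2 (-0.39). The difference between CAY10566 and vehicle in 3xTg mice was -0.13 ± 0.09 (interval -0.32 to 0.06). All 4 3xTg-S mice lay below all WT-D mice (-0.29 ± 0.09, interval -0.48 to -0.10).

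*Enpp6* had the highest and the lowest fitted fold change of the 10 genes over the 5 pairwise comparisons. It was at 10.4, 7.30, 9.11 and 10.7 CPM in WT-D mice and at 14.0, 17.2, 10.6 and 18.04 CPM in 3xTg-D mice. 3 of 4 3xTg-D mice lay above every WT-D mouse and mouse 3 lay within the WT-D range, and the fitted level was 59.7% higher in 3xTg-D mice (0.68 ± 0.18, interval 0.29 to 1.07). With CAY10566 it was at 10.3, 7.51, 6.97 and 7.98 CPM in WT-S mice and at 10.4, 8.20, 11.1 and 6.75 CPM in 3xTg-S mice. Relative to 3xTg-D the 3xTg-S level dropped by 39.3% (-0.72 ± 0.19, interval -1.15 to -0.29), with 3 of 4 3xTg-S mice below every 3xTg-D mouse, and it differed from WT-S by 0.14 ± 0.18 (interval -0.26 to 0.53) and from WT-D by -0.06 ± 0.18 (interval -0.46 to 0.33). In WT mice the difference between CAY10566 and vehicle was -0.19 ± 0.16 (interval -0.54 to 0.16). The difference between these 2 responses, the interaction, was -0.53 ± 0.27, and its interval of -1.09 to 0.04 included 0. Neither *Enpp6* call passed without 3xTg-D mouse 4, where the vehicle difference was 0.57 ± 0.18 and the CAY10566 difference -0.63 ± 0.20. The 3xTg-D mice enter both comparisons, so these are not independent of each other.

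*Gpr17*, an orphan receptor of committed precursors that must be shut off before myelination, was called higher in 3xTg mice under CAY10566 and was not called under vehicle. It was at 34.4, 36.1, 40.9 and 41.4 CPM in WT-D mice and at 34.7, 55.8, 49.6 and 51.7 CPM in 3xTg-D mice, where 3 of 4 mice lay above all WT-D mice and mouse 1 did not (0.33 ± 0.13, interval 0.04 to 0.62). It was at 34.6, 37.7, 39.7 and 37.8 CPM in WT-S mice and at 41.7, 53.4, 59.5 and 48.2 CPM in 3xTg-S mice, with no overlap (0.42 ± 0.11, interval 0.19 to 0.66, 34.1% higher). CAY10566 was followed by a difference of 0.08 ± 0.15 in 3xTg mice (interval -0.25 to 0.41) and -0.03 ± 0.08 in WT mice (interval -0.19 to 0.14). The interaction was 0.11 ± 0.18 (interval -0.27 to 0.49) and was not called. The CAY10566 genotype difference passed in every fit that left out 1 mouse, and the vehicle difference passed without 3xTg-D mouse 1 (0.46). *Gpr17* shares 188 exon bases, 3.62% of its exons, with *Lims2* on the opposite strand, and the strand setting of the counting is not stated. *Lims2* was 7.59 ± 1.00 CPM in WT-D mice, 4.68 ± 0.912 in 3xTg-D mice, 6.83 ± 0.638 in WT-S mice and 4.46 ± 0.253 in 3xTg-S mice, and so moved opposite to *Gpr17* between the genotypes.

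The other genes of the committed stage showed no difference past the threshold. *Itpr2*, an intracellular calcium channel found in newly formed oligodendrocytes and also in astrocytes, was at 37.3, 35.9, 36.3 and 31.2 CPM in WT-D mice, 35.0, 27.7, 35.8 and 32.4 CPM in 3xTg-D mice, 32.5, 30.3, 35.3 and 37.0 CPM in WT-S mice and 37.8, 28.9, 38.0 and 35.3 CPM in 3xTg-S mice. Its fitted differences ran from -0.11 to 0.10. *Tcf7l2*, a Wnt effector that is also high in thalamic neurons, was between 3.86 and 7.93 CPM in all 16 mice, with its highest value in 3xTg-D mouse 2 and its lowest in 3xTg-S mouse 2. The summed level of 7 thalamic markers was 72.7 to 84.1 CPM in WT-D mice, 58.3 to 77.9 in 3xTg-D mice, 74.1 to 81.6 in WT-S mice and 66.2 to 87.6 in 3xTg-S mice, none of them at 0, and its part in the *Tcf7l2* values was not tested. *Bmp4*, a secreted signal made by committed precursors, ran from 0.714 to 2.64 CPM. Both its extremes were in 3xTg-D mice. Its interval between 3xTg-D and WT-D was -0.92 to 0.98 and that between 3xTg-S and 3xTg-D was -1.28 to 0.51, so differences within those intervals could not be told from 0.

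The threshold for a call was 0.01 for the unadjusted p of edgeR's quasi-likelihood test. Between 3xTg-D and WT-D, 2 of the 10 genes were called (*Enpp6* higher, *Olig2* lower), against 4.91% of all 16475 tested genes (2.44% higher, 2.47% lower, and 1.85% past an adjusted p of 0.05), and 2 of 10 did not overlap (*Cspg4* and *Olig2*), against 8.17%. Between 3xTg-S and WT-S, 1 of 10 was called and did not overlap (*Gpr17*), against 4.26% called (1.79% higher, 2.47% lower, and 1.4% past an adjusted p of 0.05) and 6.75% not overlapping. Between 3xTg-S and 3xTg-D, 1 of 10 was called (*Enpp6*, lower), against 0.904% (0.279% higher, 0.625% lower, and 0% past an adjusted p of 0.05), and none was free of overlap, against 3.16%. Between WT-S and WT-D, 0 of 10 were called, against 0.188% (0.0789% higher, 0.109% lower, and 0% past an adjusted p of 0.05), and 0 were free of overlap, against 1.48%. Between 3xTg-S and WT-D, 3 of 10 were called and did not overlap (*Myrf* and *Olig2* lower, *Gpr17* higher), against 5.69% called (2.26% higher, 3.43% lower, and 1.58% past an adjusted p of 0.05) and 9.55% not overlapping. No interaction was called in the 10 genes, against 0.595% (0.303% higher, 0.291% lower, and 0% past an adjusted p of 0.05). None of the 10 reached an adjusted p of 0.05 in any comparison. The median fold changes of the 10 were -0.01, -0.04, -0.11, -0.07 and -0.15 in the order given, with a median of 0.00 over all genes except for 0.01 between 3xTg-S and 3xTg-D. The 10 genes were picked with these contrasts known, so their counts are printed beside the background and nothing is read from them.

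**Figure D3:**
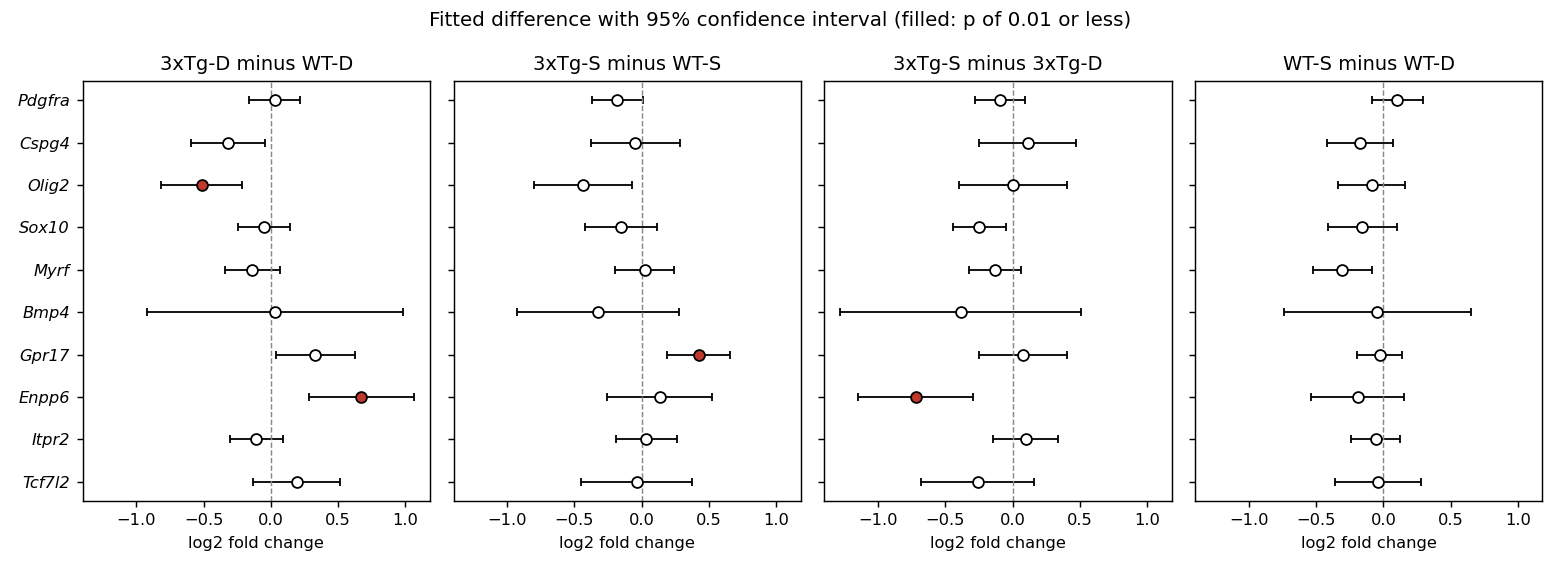
Fitted log2 fold change of the 10 genes with 95% confidence intervals in 4 comparisons, filled where p was 0.01 or less. *Enpp6* lies at 0.68 between 3xTg-D and WT-D and at -0.72 between 3xTg-S and 3xTg-D, *Olig2* at -0.52 and *Gpr17* at 0.42 between genotypes, and most other intervals include 0.

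Calls of *Myrf* and *Gpr17* between 3xTg-S and WT-D were lost in some fits with 1 mouse left out. Such fits hold fewer mice, so a lost call need not mean a smaller difference. Without WT-D mouse 4 the *Myrf* fold change was -0.299 ± 0.094, against -0.288 ± 0.085 with all mice. The *Myrf* call was lost without WT-D mouse 1 (-0.21), WT-D mouse 4 (-0.30), 3xTg-S mouse 1 (-0.28) or 3xTg-S mouse 3 (-0.25), and the *Gpr17* call (0.39 ± 0.11) without WT-D mouse 1 (0.35), WT-D mouse 2 (0.36) or 3xTg-S mouse 3 (0.31). *Olig2* (-0.53 ± 0.14) kept its call in every such fit. *Sox10* (-0.32 ± 0.10) was not called with all mice and was called without WT-D mouse 3 (-0.38) or 3xTg-S mouse 2 (-0.37). In WT mice, *Cspg4* (-0.17 ± 0.11) was called only without WT-S mouse 4 (-0.29).

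Other genes of the same stages were read beside the 10, from lists also chosen with earlier results of these mice known. Of 18 further OPC genes, including *Ptprz1*, *Tnr*, *Vcan* and *Olig1*, 0 were called in any of the 6 tests, and their median fold changes ran from -0.06 to 0.00. Their summed level was 952 to 968 CPM in WT-D mice, 844 to 1028 in 3xTg-D mice, 916 to 1017 in WT-S mice and 895 to 1038 in 3xTg-S mice. *Tnr*, a matrix glycoprotein gene, was at 275.5 ± 16.5 CPM in WT-D mice and 247.2 ± 44.4 in 3xTg-D mice. *Ptprz1*, a receptor phosphatase abundant in OPCs, was at 420.6 ± 11.7 CPM in WT-D mice and 444.3 ± 34.4 in 3xTg-D mice. *Olig1*, though not called, was on the same side of 0 as *Olig2* between the genotypes. Its fold change was -0.29 ± 0.12 between 3xTg-D and WT-D, -0.30 ± 0.18 between 3xTg-S and WT-S and -0.35 ± 0.16 between 3xTg-S and WT-D. Of the 18 genes, 10, 7 and 7 had positive fold changes in these comparisons.

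Of 14 further genes of the committed and newly formed stage, *Lims2*, an adaptor protein gene, was lower in 3xTg-D mice than WT-D mice (-0.69 ± 0.16, adjusted p = 0.0610, edgeR quasi-likelihood), in 3xTg-S mice than WT-S mice (-0.63 ± 0.12, adjusted p = 0.0329) and in 3xTg-S mice than WT-D (-0.78 ± 0.13, adjusted p = 0.0134). *Zfp488*, a zinc finger repressor of the lineage, was lower in 3xTg-S mice than WT-S mice (-0.92 ± 0.30, edgeR adjusted p = 0.234), a call that held in only 1 of 8 fits with a mouse left out, the one without WT-S mouse 4. *Nkx6-2*, a homeobox factor of maturing cells, was lower in 3xTg-S mice than 3xTg-D (-0.57 ± 0.18, edgeR adjusted p = 0.722), a call lost in every such fit but those without 3xTg-D mouse 3 or 3xTg-S mouse 2. It was also lower in 3xTg-S mice than WT-D (-0.66 ± 0.18), except without WT-D mouse 1 (-0.57) or 3xTg-S mouse 3 (-0.65). *Bcas1*, a marker of cells about to myelinate, was at 198.2 ± 23.05 CPM in WT-D mice, 221.2 ± 19.3 in 3xTg-D mice, 204.6 ± 36.8 in WT-S mice and 175.4 ± 56.7 in 3xTg-S mice, and was not called. None of the 14 was called in both comparisons in which *Enpp6* was called.

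Genes of mature oligodendrocytes were higher in 3xTg-D mice than WT-D mice in part. The median fold change of 17 was 0.15, against 0.00 over all genes. Of the 17, 4 rose and 0 fell, against 2.44% called higher and 2.47% called lower over all genes. The list was chosen with earlier results of these mice known, so its counts and adjusted p are a description. Among the 4 were *Mbp* (0.49 ± 0.09, adjusted p = 0.0214) and *Mobp* (0.39 ± 0.08, adjusted p = 0.0275, edgeR), which encode proteins of compact myelin, and *Anln* (0.53 ± 0.12, adjusted p = 0.0649), a septin-binding protein of myelin. The summed level of the 17 genes was 5288 to 6157 CPM in WT-D mice and 6700 to 7860 CPM in 3xTg-D mice, without overlap. Between 3xTg-S and WT-S only *Anln* was called (0.43 ± 0.13), and that call was lost without WT-S mouse 1, 2 or 4 or 3xTg-S mouse 2 or 3 (0.36 to 0.45 in those fits).

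Between 3xTg-S and 3xTg-D all 17 mature genes had negative fold changes, with a median of -0.35 against 0.01 over all genes. These genes mark 1 cell type and were read in the same mice, so their signs are not independent of each other. None of the 17 passed an adjusted p of 0.05, and 5 fell at the unadjusted threshold, against 0.625% of all tested genes. They were *Trf*, an iron carrier (-0.49 ± 0.11), *Cnp*, a myelin phosphodiesterase (-0.44 ± 0.11), *Mag*, an adhesion protein of the inner myelin layer (-0.42 ± 0.11), *Cldn11*, a tight junction protein (-0.35 ± 0.10), and *Klk6*, a protease (-1.97 ± 0.59), with an adjusted p of 0.722 for each in edgeR. *Trf* and *Cnp* kept the call in every fit with a mouse left out. *Mag* lost it without 3xTg-D mouse 1 (-0.32) or 3xTg-S mouse 3 (-0.37), *Cldn11* without any mouse other than 3xTg-D mouse 2 and 3xTg-S mouse 2, and *Klk6* without any mouse other than 3xTg-D mice 1 and 3. The summed mature level was 5759, 5184 and 5130 CPM in 3xTg-S mice 1, 3 and 4 and 7840 CPM in mouse 2, which also had the lowest share of reads outside genes. Without that mouse, 15 of the 49 other lineage genes were called in place of 6, and without 3xTg-S mouse 3 only 2 were. Over all genes the calls went from 149 to 802 and to 88 in the same fits. With that share as a covariate, 181 of all genes were called between these groups in place of 149, and the *Enpp6* fold change was -0.69. Whether the share caused any of these differences was not tested. The *Enpp6* fold change between these groups ran from -0.85 to -0.61 when 1 mouse was left out.

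In WT mice 0 of the 49 other lineage genes passed the threshold of 0.01 with CAY10566 in edgeR, beside 31 of all 16475 genes (0.188%). At an unadjusted p under 0.05 there were 2 of the 49 and 371 of all genes (2.25%). With mice of the same number as a block, which the deviations of these 2 groups allowed, 1 was called, *Klk6*, and 0 of the 10 genes. Of all tested genes the block called 0.698% there. Between 3xTg-S and WT-D, *Mag* (-0.42 ± 0.10, edgeR adjusted p = 0.0721) and *Mog*, a protein of the outer myelin surface (-0.51 ± 0.13, adjusted p = 0.0883), were lower. The interaction was negative for all 17 mature genes (median -0.22), whose signs are not independent of each other. EdgeR called none of them, beside 98 of all 16475 genes (0.595%). At an unadjusted p under 0.05 there were 0 of the 17 and 821 of all genes (4.98%).

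**Figure D4:**
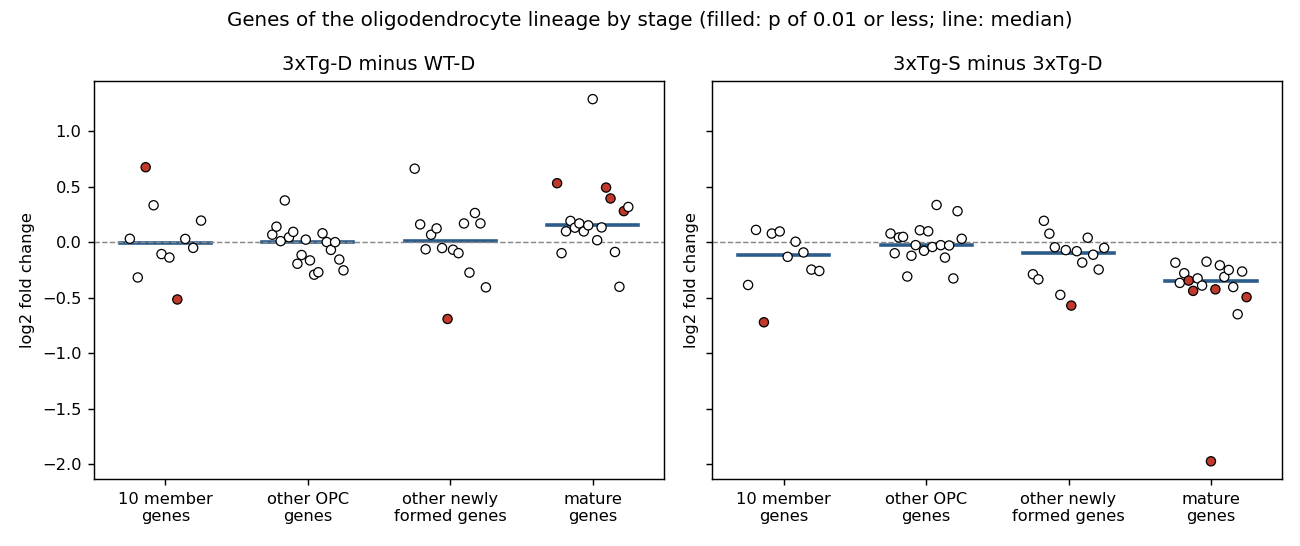
Log2 fold change of the 10 genes and of 18 other OPC, 14 other newly formed and 17 mature oligodendrocyte genes, between 3xTg-D and WT-D and between 3xTg-S and 3xTg-D, with the median as a line and filled points at p of 0.01 or less. The mature genes have medians of 0.15 and -0.35, and the OPC genes 0.00 and -0.03.

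Signalling partners of the member genes were read from lists of ligands, receptors and targets. These lists were also chosen with earlier results known, so their calls are a description. Over all tested genes 4.91% were called between 3xTg-D and WT-D, 4.26% between 3xTg-S and WT-S and 5.69% between 3xTg-S and WT-D. Of 4 PDGF ligand genes, *Pdgfa*, the main OPC mitogen, was at 35.5 ± 2.12 CPM in WT-D mice and 35.3 ± 2.08 in 3xTg-D mice, and only *Pdgfd* was called. *Pdgfd* was lower in 3xTg-D mice than WT-D mice (-0.59 ± 0.13, edgeR adjusted p = 0.0582) and in 3xTg-S mice than WT-S mice (-0.66 ± 0.19, adjusted p = 0.165, a call lost without WT-S mouse 1 or 3 or 3xTg-S mouse 2 or 4). It was also called lower in 3xTg-S mice than WT-D mice (-0.66), a call lost only without WT-D mouse 3 (-0.60). Of 20 genes of BMP signalling, 2 secreted antagonists rose in 3xTg-D mice against WT-D, *Nog* (0.59 ± 0.14, edgeR adjusted p = 0.0748) and *Chrdl1* (0.65 ± 0.15, adjusted p = 0.0582). *Id4*, a BMP target that holds back differentiation, was lower in 3xTg-S mice than WT-S mice (-0.55 ± 0.13, edgeR adjusted p = 0.0675). Between 3xTg-S and WT-D, *Nog* (0.53 ± 0.15) and *Id4* (-0.44 ± 0.13) were also called, the former lost without WT-D mouse 1 or 4 or 3xTg-S mouse 3 or 4 and the latter without WT-D mouse 1, 2 or 3 or 3xTg-S mouse 3 or 4. *Nog* was at 5.82 ± 1.12 CPM in WT-D mice and 8.75 ± 0.679 in 3xTg-D mice.

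Of 10 genes of Wnt and TCF signalling, *Lgr6*, an R-spondin receptor, was far higher in 3xTg mice, at 3.75 ± 1.08 CPM in WT-D mice, 13.2 ± 2.22 in 3xTg-D mice, 2.84 ± 1.05 in WT-S mice and 16.8 ± 2.80 in 3xTg-S mice (1.82 ± 0.20, adjusted p = 0.000766 with vehicle and 2.55 ± 0.23, adjusted p = 0.000160 with CAY10566, edgeR quasi-likelihood). *Apcdd1*, a Wnt inhibitor, was lower in 3xTg-S mice than WT-S mice (-0.36 ± 0.08, edgeR adjusted p = 0.0809). Both *Lgr6* and *Apcdd1* were also called between 3xTg-S and WT-D. They kept the call in all 8 fits with a mouse left out (2.04 to 2.33 and -0.29 to -0.23). *Axin2*, a target of Wnt signalling, was lower in 3xTg-D mice than WT-D mice (-0.28 ± 0.08, edgeR adjusted p = 0.176), a call that held only without WT-D mouse 2 or 3xTg-D mouse 4 among 8 fits with a mouse left out. None of the genes in these lists passed the threshold between CAY10566 and vehicle in either genotype.

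Within groups, *Enpp6* followed few of the other 9 genes. After removal of group means from log2 CPM, its correlation over 16 mice was highest with *Bmp4* (r = 0.52) and lowest with *Olig2* (r = -0.60), and it lay between -0.25 and 0.12 with the other 7. Of 16465 other genes, the 5 most like *Enpp6* by the same measure were *Glb1l2* (r = 0.87), *Mob3b* (r = 0.82), *Hpse* (r = 0.81), *Gm34776* (r = 0.80) and *Ptov1* (r = 0.80). Their mean levels were 0.600, 5.13, 0.547, 0.982 and 66.0 CPM in that order, so *Glb1l2*, *Hpse* and *Gm34776* were read at low counts. These correlations are a description over libraries that share depth and dissection, and they carry no test.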

How the data were processed

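Hippocampal RNA of 16 mice was sequenced as single-end reads. Trimmomatic 0.35 (trimming) and STAR 2.5.1b (alignment to GRCm38, Gencode M23) were used by the authors, who deposited raw counts per gene without normalization. Libraries were ligated with adapters that carry molecular identifiers. Whether these were used in counting, and the strand setting, are not given in the sources used here. From 4 lines that name no gene, which hold 24.0 to 27.8% of reads, only the share outside genes was used. Genes with low counts were removed (filterByExpr, minimum count 10, 16475 genes left), TMM scaling was applied, and pairs of groups were fitted with edgeR 4.0.16 in R 4.3.3 (quasi-likelihood test, called at p of 0.01 or less, the study's threshold, with Benjamini-Hochberg adjusted p beside it). The interaction was fitted in all 16 mice. The fits were tested on simulated data. DESeq2 1.42.0 was an alternative. Exon lengths and overlaps came from Gencode M21. The 10 genes and all lists were chosen with earlier results of these data known. Named genes were all 10, and from each other list those called in any pairwise comparison and the 2 with the highest mean CPM. For *Enpp6*, the 5 genes with the highest correlation were named, and *Thy1* checked the genotype labels. Each sample is a separate mouse. Same-numbered WT-S and WT-D mice deviated together (r of 0.114 to 0.340 over genes in the 4 pairs), so the number was taken to pair these 2 groups, from the data and not from a stated litter or batch. One gene of the mature list that met the rule for named genes, and part of the 3xTg genotype, are not reported here.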

Additional observations from a re-analysis of the deposited data

How the results depend on the processing

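Over all alternatives, 977 of 1030 fold changes of the 10 genes kept their sign, and 1029 lay within 1 SD between replicates of the reported value. The exception was *Tcf7l2* between 3xTg-D and WT-D with the share of reads outside genes as a covariate (-0.02). Many of these fits left out 1 mouse and shared all other mice with the main fit, so a shift of 1 SD was hardly possible there. The count of 1029 is therefore not a measure of stability, and calls changed in some of the same fits. At an adjusted p of 0.05, 0 of the 10 genes were called in every comparison, and 3, 1, 0 and 1 of the 49 other lineage genes between 3xTg-D and WT-D, 3xTg-S and WT-S, 3xTg-S and 3xTg-D, and 3xTg-S and WT-D. With the covariate, 1 of the 10 was called between 3xTg-D and WT-D, 1 between WT-S and WT-D (*Myrf*) and 5 between 3xTg-S and WT-D. Over all genes the calls went from 809 to 748, from 31 to 49 and from 937 to 1379 in these comparisons. *Myrf* was also the 1 gene called between WT-S and WT-D by the DESeq2 Wald test, by the DESeq2 likelihood ratio test with DEGES size factors, with no filter on low counts and with all 16 mice in one fit. Those settings called 44, 43, 180 and 48 of all genes there, against 31. With no filter, 2 of the 10 were called between 3xTg-S and WT-S, and 5, 10, 1 and 8 other lineage genes between 3xTg-S and WT-S, 3xTg-S and 3xTg-D, WT-S and WT-D, and 3xTg-S and WT-D. Over the 33942 genes then tested, calls went from 702 to 1077, 149 to 355, 31 to 180 and 937 to 1261. Between 3xTg-S and WT-D both DESeq2 tests called 7 of the 49, and with all 16 mice in one fit 3 were called between 3xTg-D and WT-D. Over all genes the DESeq2 tests called 1027 and 1024 against 937, and the single fit 697 against 809. The cause of these shifts was not tested.

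Leaving out 1 mouse gave 1 to 3 calls among the 10 genes between 3xTg-D and WT-D, 1 to 2 between 3xTg-S and WT-S, 0 to 2 between 3xTg-S and 3xTg-D, 0 to 1 between WT-S and WT-D and 1 to 4 between 3xTg-S and WT-D. Over all genes it gave 651 to 914, 516 to 993, 68 to 802, 22 to 516 and 664 to 1545 calls in that order. For the interaction it gave 56 to 487 over all genes. Among the 49 others it gave 5 to 9 (9 without WT-D mouse 1), 1 to 4 (1 without WT-S mouse 1 or 3xTg-S mouse 3), 2 to 15 (3 without 3xTg-D mouse 1 or 4 or 3xTg-S mouse 1 or 4), 0 to 0, 3 to 12 (12 without 3xTg-S mouse 2, where the calls over all genes went from 937 to 1545) and, for the interaction, 0 to 2 (2 without 3xTg-S mouse 2).

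Same-numbered mice had correlated deviations over 0.1 in every pair only for WT-S and WT-D, and 7 of 8 of those mice correlated best with their own number. In the other comparisons the lowest pair was at -0.10 (3xTg-D and WT-D), -0.10 (3xTg-S and WT-S), 0.02 (3xTg-S and 3xTg-D) and 0.06 (3xTg-S and WT-D). There 3, 6, 4 and 7 of 8 mice correlated best with their own number. The mean over same-numbered pairs was 0.04, 0.24, 0.21 and 0.18 in that order, against 0.22 for WT-S and WT-D. These comparisons did not reach 0.1 in every pair and were not taken as paired. A shared litter or batch was not tested. With the replicate block, 2, 2, 1, 0 and 4 of the 10 genes were called in the 5 pairwise comparisons and 0 in the interaction, *Olig2* being added between 3xTg-S and WT-S and *Sox10* between 3xTg-S and WT-D. The block called 5.73, 8.13, 6.88, 0.698 and 6.53% of all tested genes in these comparisons, and 3.79% in the interaction. *Gpr17* between 3xTg-S and WT-S then also passed the adjusted threshold. Among the 49 other genes the block gave 7, 6, 16, 1 and 5 calls. Over all genes it raised the calls from 149 to 1133 between 3xTg-S and 3xTg-D and from 31 to 115 between WT-S and WT-D.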
